A study of Mus musculus with 16 samples.

Results

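Chemokines are small secreted proteins that direct the migration of cells, and their receptors are 7-transmembrane proteins that signal mostly through inhibitory G proteins. The genes described here are the mouse chemokines and chemokine receptors in the total RNA of cardiac cells. They were taken by symbol as every gene named Ccl, Cxcl, Ccr or Cxcr with a number and at most 1 further letter, together with Cx3cl1, Cx3cr1, Xcr1 and Ackr1 to Ackr4. This gave 59 of the 39043 entries of the table, namely 37 ligands and 22 receptors.

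The study set cardiomyocytes made in culture from cardiac stem cells beside libraries labelled as such stem cells and beside cardiomyocytes of the adult heart, all from C57BL/6 mice. The iCMs (n = 3) were obtained by growing cardiac stem cells as floating cardiospheres and then keeping them in StemPro medium, first with BMP-4, Activin A, beta-FGF, Wnt11 and Wnt5A and then with DKK1, an inhibitor of canonical Wnt signalling. The aCMs (n = 2) are cardiomyocytes of adult hearts freed by collagenase perfusion, for which the sample records name a gradient and the methods name repeated settling and pools of 2 hearts. The CSCs (n = 3) are cardiac cells depleted of CD45 and CD31 positive cells, selected for c-kit and expanded in growth medium with serum. The methods describe CSCs and iCMs as triplicates of 1 clone, so for these groups p-values measure the spread between samples and not that between clones or animals. The aCM libraries come from pooled hearts, so their spread includes that between pools. All comparisons share 1 estimate of the spread. The iCMs are a bulk culture that was not sorted for cardiomyocytes.

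Most chemokines fall into a CXC and a CC family by the spacing of their first cysteines, and most bind several receptors. In the heart they are best known for calling neutrophils, monocytes and lymphocytes to injured muscle, while Cxcl12 and its receptor Cxcr4 also guide vessel growth and hold stem cells in place. Atypical receptors, the Ackr genes, bind chemokines without G-protein signalling and take them out of the extracellular space.

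The libraries held 13.4 to 31.2 M estimated counts in iCMs, 11.1 and 14.6 M in aCMs and 29.9 to 63.2 M in CSCs. Levels are given in CPM, counts scaled to the size of the TMM-adjusted library, and are not divided by transcript length, so they are compared between groups for 1 gene and not between genes. Several checks of the labels bear on every comparison below. Kit, which encodes c-kit, was at 39.6, 45.01 and 44.0 CPM in iCMs and at 9.86 and 6.80 CPM in aCMs, against 0.0836, 0.0303 and 0 CPM in CSCs, although CSCs were selected for it. The Y-linked gene Eif2s3y was at 29.6 to 33.7 CPM in iCMs and at 0.263 and 84.8 CPM in the 2 aCM libraries, against at most 0.175 CPM in CSCs. The 2 aCM libraries thus differed from each other in a Y-linked gene, and the part of this in their other differences was not tested. The methods place the selection for c-kit before cloning and expansion in culture, and the level of Kit at that step is not known from these libraries. Eif2s3y goes against the CSCs being 1 clone with the iCMs. A difference from CSCs is therefore one from the libraries labelled CSCs. It may not be a difference from the cells the iCMs came from. The summed level of 8 cardiomyocyte markers was 11886 to 17563 CPM in iCMs and 149629 to 178768 CPM in aCMs, against 51.8 to 119 CPM in CSCs. The sum of 14 leukocyte markers was 221 to 366 CPM in iCMs and 88.5 to 178 CPM in aCMs, against 21.0 to 72.0 CPM in CSCs, and none of the 14 was at 0 in all libraries of a group. In CSCs, Cd14 alone was at 62.8, 15.5 and 24.1 CPM. Among the others Csf1r reached 7.25 CPM, while Ptprc, C1qa, Cd3e and S100a9 were at most 0.0585 CPM. Among the iCM libraries, 10 of the 14, such as the myeloid markers Csf1r, C1qa and Lyz2, were highest in replicate 3, and the other 4, among them Ptprc and Cd3e, in replicate 2. The sum of 8 endothelial markers was 1466 to 1825 CPM in iCMs and 1168 to 1540 CPM in aCMs, against 5.27 to 9.18 CPM in CSCs. The sum of 8 fibroblast markers was 3308 to 3482 CPM in iCMs and 337 to 565 CPM in aCMs, against 6107 to 13131 CPM in CSCs. The CSC sum was mostly Col1a1 (4409, 3177 and 4607 CPM) and Col3a1 (8529, 2843 and 5217 CPM). These 2 were called lower in iCMs than in CSCs, while 5 of the 8 (Col1a2, Dcn, Lum, Thy1 and Tcf21) were called higher. The sum of 6 mesothelial markers was 287 to 512 CPM in iCMs and 16.7 to 17.0 CPM in aCMs, against 174 to 211 CPM in CSCs. In CSCs, Msln alone was at 208, 171 and 187 CPM. Of the 6, 5 were called higher in iCMs than in CSCs and none lower. In all CSC libraries Tcf21 of the fibroblast list and Upk1b of the mesothelial list were at 0. Their part in the chemokine results was not tested, and in these bulk samples fewer cells of a type and less RNA per cell cannot be told apart. The methods speak of libraries grouped by preparation without assigning samples, so a preparation batch and the groups cannot be told apart.

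A filter on low counts kept 51 of the 59 genes, 33 ligands and 18 receptors. Those not tested are Ccl19, Ccl21b, Ccl26, Ccl27b, Cxcr1, Cxcr3, Cxcr6 and Ccr6. Of these, Ccl21b and Ccl27b were at 0 counts in all 8 libraries, and both are near-identical copies of Ccl21a and Ccl27a, with which they can share reads. A gene is called where the quasi-likelihood test of edgeR gave a Benjamini-Hochberg adjusted p below 0.05 over all 20254 tested genes and the change was at least 2.5-fold. In iCMs against CSCs, 26 of the 51 were higher and 6 lower, where 22% of all tested genes were called higher and 7.16% lower (29.1% in all). Against aCMs, 25 were higher in iCMs and 2 lower, where 19.6% of all tested genes were called higher and 15.3% lower (34.9% in all). In aCMs against CSCs, 16 were higher and 14 lower, where the shares of all tested genes were 24.2% and 20.4% (44.7% in all). The 3 comparisons share their groups and are not independent of each other.

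**Figure D1:**
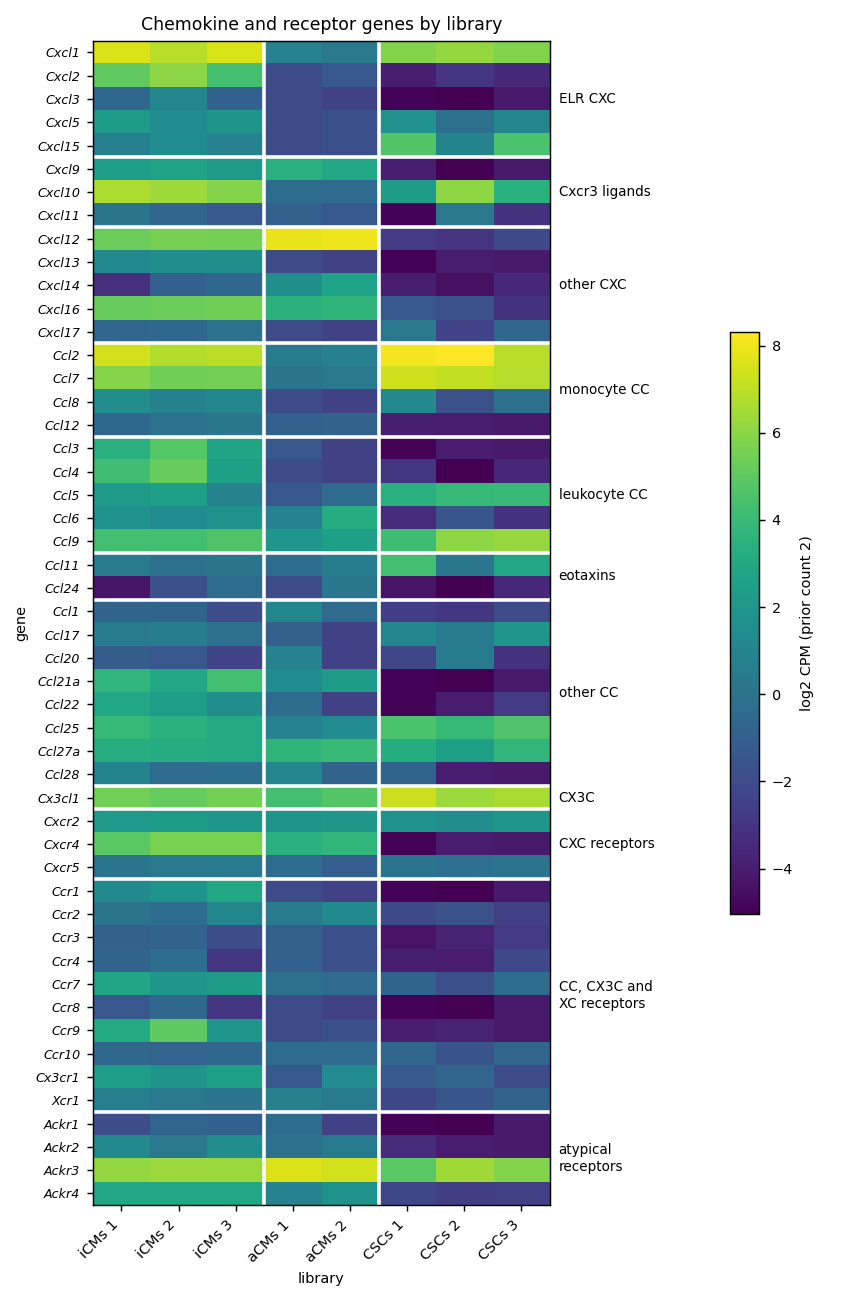
Level of 50 of the 51 tested chemokine and receptor genes in each library, as log2 CPM with a prior count of 2 (colour), with genes as rows ordered by role and the 3 iCM, 2 aCM and 3 CSC libraries as columns. Colours are to be read along a row, since levels are not per transcript length. With this prior count, a gene without counts is drawn higher in a smaller library. Ccr1, without a count in aCMs or CSCs, is drawn at -1.93 and -2.38 in aCMs and at -4.90, -5.04 and -4.10 in CSCs. Among genes with few or no counts, such a step between aCMs and CSCs is therefore no difference in level. Cxcl12, Cxcl16 and Cxcr4 are darkest in the CSC columns, and Ccl2 and Cxcl1 in the aCM columns.

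Ligands and receptors divided differently between the groups. Of the 18 tested receptors, 12 were higher in iCMs than in CSCs and none was lower (22% and 7.16% of all tested genes). In aCMs against CSCs, 7 were higher and none lower (24.2% and 20.4% of all tested genes). Ccr1, Ccr8 and Ackr1 had 0 counts in CSCs, so against CSCs they could not be called lower. Cxcr4, Ccr9, Ackr2, Ccr3 and Ccr4 had 2, 5, 6, 7 and 10 counts over the CSC libraries. At such counts a lower call against CSCs was hardly possible, so its absence says little for these receptors. With the stricter filter, 9 of 13 receptors were higher in iCMs than in CSCs. With only these groups compared, it was 9 of 14, and none was lower in either fit. With libraries scaled by their totals only, 5 receptors were higher in aCMs than in CSCs and 1, Cxcr5, was lower (-1.94, edgeR adjusted p = 0.0105). Of all 20254 tested genes, 3816 were then called higher and 6695 lower. Of the 33 tested ligands, 14 were higher and 6 lower in iCMs than in CSCs. Between aCMs and CSCs the ligands were called more often lower, with 9 higher and 14 lower. Against aCMs, 20 ligands and 5 receptors were higher in iCMs, and the 2 lower calls were both ligands (19.6% and 15.3% of all tested genes). With library totals only, 22 ligands and 8 receptors were higher in iCMs than in aCMs. In that fit 6706 of all 20254 tested genes were called higher, in place of 3972. The median log2 fold change of the 51 genes was 2.58 for iCMs against CSCs, 1.74 for iCMs against aCMs and 0.49 for aCMs against CSCs, and that of all tested genes was -0.02, 0.19 and -0.10 in the same order. With genes at 0 counts in a group set at their bound, the median against aCMs was 1.65, and the others did not move. Over the members tested in each fit, the median of 2.58 was 1.71 without iCMs replicate 1, where Ccr3, Ccr4 and Ccr8 were not tested. The median of 0.49 ran from 0 without aCMs replicate 2 to 1.03 without CSCs replicate 2.

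Cxcl12 (ENSMUSG00000061353, chr6:117168535-117181368 in GRCm38.p6), the ligand that retains stem cells and guides vessels through Cxcr4, was lowest in CSCs and highest in aCMs. It was at 38.9, 47.4 and 46.4 CPM in iCMs and 236 and 254 CPM in aCMs, against 0.117, 0.0909 and 0.175 CPM in CSCs. No groups overlapped. The log2 fold change was 8.47 ± 0.26 (SE) for iCMs against CSCs, 10.94 ± 0.28 for aCMs against CSCs and -2.47 ± 0.19 for iCMs against aCMs (edgeR adjusted p = 2.54e-08, 4.98e-09 and 8.93e-06).

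Cxcr4 (ENSMUSG00000045382, chr1:128588199-128592299), its signalling receptor, was all but absent from CSCs, where the 3 libraries held 2 counts together. Its level was 29.9, 48.5 and 50.1 CPM in iCMs and 10.6 and 13.1 CPM in aCMs, against 0, 0.0303 and 0 CPM in CSCs. The ratio of iCMs to CSCs was 3205, with a 95% exact counting interval from 887 to 26476 that covers counting error only, and the ratio of aCMs to CSCs was 966 (264 to 8031). Unlike Cxcl12, Cxcr4 was higher in iCMs than in aCMs, with a log2 fold change of 1.84 ± 0.37 (edgeR adjusted p = 0.00265).

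Ackr3 (ENSMUSG00000044337, chr1:90203980-90215724), the atypical receptor that removes Cxcl12, was already present in CSCs. It was at 72.0, 77.8 and 78.1 CPM in iCMs and 197 and 167 CPM in aCMs, against 29.6, 85.6 and 58.0 CPM in CSCs. The CSC libraries spread around the iCM ones, and the difference between iCMs and CSCs did not pass the test (0.40 ± 0.31, edgeR adjusted p = 0.319). It was higher in aCMs than in CSCs (1.66 ± 0.34, edgeR adjusted p = 0.00213), although with libraries scaled by their totals only the change was 1.01 and missed the fold threshold. Against aCMs, Ackr3 in iCMs was at -1.26 ± 0.34, which passed the adjusted p (0.0126, edgeR) but not the fold threshold.

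**Figure D2:**
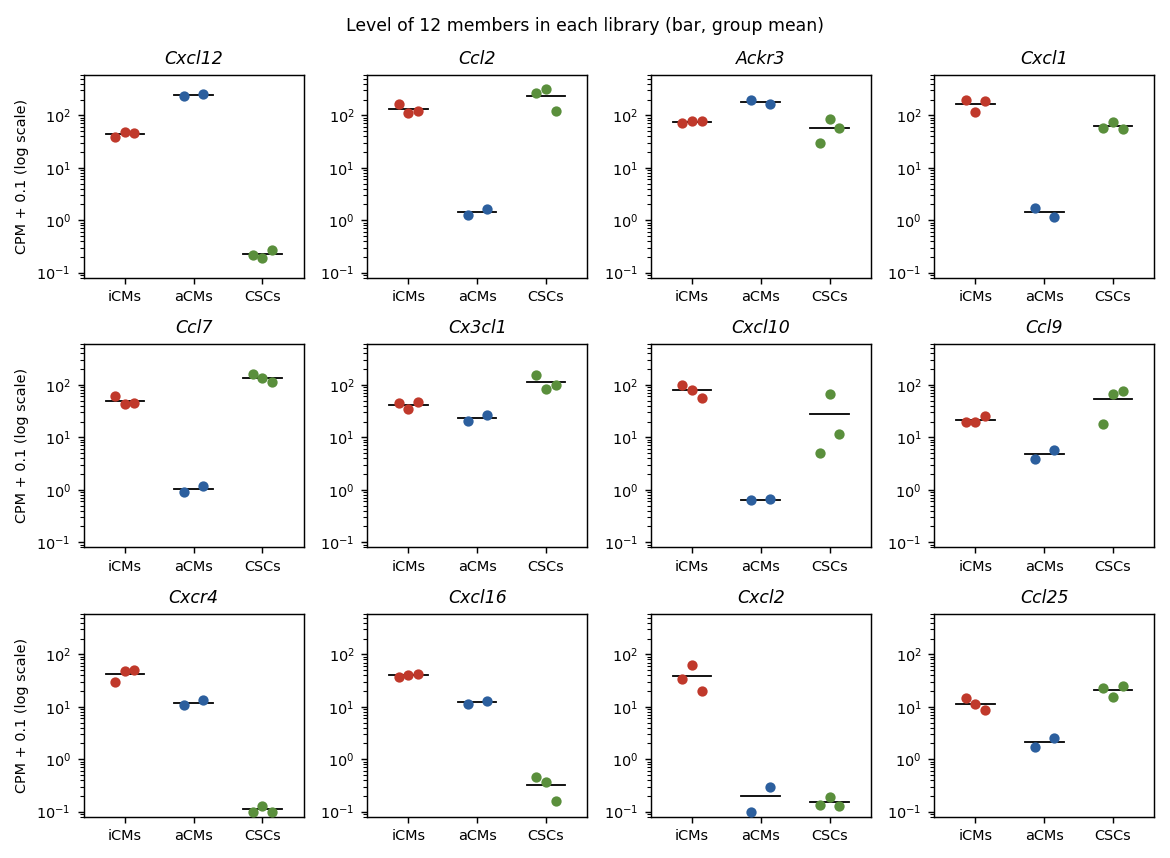
Level in each library of the 12 genes with the largest group mean, as CPM plus 0.1 on a log axis, with iCMs, aCMs and CSCs from left to right in each panel; points are libraries and bars group means. Cxcl12, Cxcr4 and Cxcl16 lie below 0.5 CPM in all CSC libraries, and Cxcl1, Ccl2, Ccl7 and Cxcl10 lie below 2 CPM in both aCM libraries.

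The ELR CXC chemokines, which attract neutrophils through Cxcr1 and Cxcr2, lie side by side on chromosome 5 in the order Cxcl5, Cxcl3, Cxcl15, Cxcl1, Cxcl2. Genes of this cluster took different courses in the same cells, and a link of these courses to the promoters was not tested. Shown are the promoters of 4 of these neighbours, without Cxcl5, and of Cxcl10, which lies further along the chromosome. All are RefSeq sequences of build GRCm38.p6, the patch series of the mm10 assembly named in the sample records. They end at the base before the annotated start and are written 5′ to 3′ on the strand of the gene. Capitals mark matches to GGGANNTTCC, a core motif of NF-kB, on either strand (in Cxcl1, Cxcl2 and Cxcl3 the matches of both strands overlap to an 11-base run) and to GAAANNGAAA, a core motif of interferon-stimulated elements. The windows are chr5:90891125-90891244 for Cxcl1, chr5:90903779-90903898 for Cxcl2, chr5:90785981-90786100 for Cxcl3 and chr5:90794414-90794533 for Cxcl15, all on the plus strand, and chr5:92348890-92349109 on the minus strand for Cxcl10.
Cxcl1: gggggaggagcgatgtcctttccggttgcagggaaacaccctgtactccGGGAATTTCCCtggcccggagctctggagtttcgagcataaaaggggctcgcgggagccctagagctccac
Cxcl2: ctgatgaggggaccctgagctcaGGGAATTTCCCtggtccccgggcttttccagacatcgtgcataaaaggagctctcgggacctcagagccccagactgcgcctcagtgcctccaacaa
Cxcl3: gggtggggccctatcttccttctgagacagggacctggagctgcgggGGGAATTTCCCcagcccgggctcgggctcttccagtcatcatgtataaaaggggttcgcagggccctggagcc
Cxcl15: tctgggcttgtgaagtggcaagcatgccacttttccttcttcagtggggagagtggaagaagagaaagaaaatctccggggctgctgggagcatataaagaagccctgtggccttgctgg
Cxcl10: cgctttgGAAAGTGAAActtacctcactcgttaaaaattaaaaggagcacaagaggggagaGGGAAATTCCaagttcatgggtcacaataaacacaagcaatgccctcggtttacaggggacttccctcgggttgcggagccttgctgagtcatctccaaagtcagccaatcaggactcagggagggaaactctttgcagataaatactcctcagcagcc

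The run GGGAATTTCCC lies from 71 to 61 bases before the start of Cxcl1, from 97 to 87 before that of Cxcl2 and from 73 to 63 before that of Cxcl3, and the 250 bases before Cxcl15 hold no match to GGGANNTTCC. In Cxcl10 the match to GGGANNTTCC lies from 159 to 150 and that to GAAANNGAAA from 213 to 204 bases before the start. Other forms of these motifs were not searched. The table held a promoter for 44 of the 59 genes. GGGANNTTCC was found within 250 bases before the start of 6 of these 44 genes (Ccl1, Ccr3, Cxcl1, Cxcl2, Cxcl3 and Cxcl10). That is 6 of their 51 windows (11.8%), beside 1.21% of 32851 promoter windows of all genes. GAAANNGAAA was found in 3 of the 44 (Ccl19, Cxcl10 and Cxcl14), which is 5.88% of the 51 windows, beside 2.98% of all windows. A match describes the letters of the window and says nothing of binding in these cells.

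Cxcl1 (ENSMUSG00000029380) was present in CSCs, higher in iCMs and nearly absent from aCMs. It was at 193, 116 and 188 CPM in iCMs and 1.58 and 1.05 CPM in aCMs, against 57.5, 73.1 and 54.2 CPM in CSCs. The change was 1.43 ± 0.23 against CSCs (edgeR adjusted p = 0.000745) and 7.0 ± 0.39 against aCMs (edgeR adjusted p = 2.23e-06). Its neighbour Cxcl2, in contrast, was near 0 in both CSCs and aCMs. Cxcl2 was at 33.2, 63.0 and 19.8 CPM in iCMs and 0 and 0.192 CPM in aCMs, against 0.0335, 0.0909 and 0.0292 CPM in CSCs, which is a log2 fold change of 9.35 ± 0.67 against CSCs (edgeR adjusted p = 2.87e-06). The ratio of iCMs to aCMs, which held 2 Cxcl2 counts, was 369 (102 to 3045).

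Cxcl3 had counts in iCMs alone, with 0.647, 2.03 and 0.399 CPM, and 0 in all aCM and CSC libraries. It was at least 57.2-fold higher in iCMs than in CSCs and at least 6.45-fold higher than in aCMs, taking 3 counts over the group as the floor. The call against aCMs was lost without either aCM library (edgeR adjusted p = 0.081 and 0.1). Both Cxcl2 and Cxcl3 were highest in iCMs replicate 2, as were Tnf, Il1a and 4 of the 14 leukocyte markers, while the other 10 were highest in replicate 3.

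Cxcl15, the other neighbour, went the opposite way against CSCs. It was at 1.62, 2.65 and 1.73 CPM in iCMs and 0 and 0.0958 CPM in aCMs, against 25.9, 1.85 and 23.2 CPM in CSCs. CSCs replicate 2 lay inside the iCM range, and the change was -3.08 ± 0.79 (edgeR adjusted p = 0.00928). Cxcl5 did not differ between iCMs and CSCs beyond its spread (0.80 ± 0.51, edgeR adjusted p = 0.217), with 4.66, 2.58 and 3.52 CPM in iCMs, against 3.28, 0.909 and 2.02 CPM in CSCs. In aCMs it had 1 count in all. All 5 ELR chemokines were called higher in iCMs than in aCMs. That of Cxcl15 was lost without iCMs replicate 2 and without either aCM library (edgeR adjusted p = 0.0554, 0.136 and 0.107).

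Cxcr2, the receptor of these ligands, moved in no comparison. It was at 4.39, 4.64 and 3.92 CPM in iCMs and 3.42 and 3.83 CPM in aCMs, against 3.35, 2.91 and 4.01 CPM in CSCs, and its largest change was 0.34 ± 0.29 (edgeR adjusted p = 0.36). Cxcr1 was not tested, with 8 counts in iCMs, 4 in aCMs and 2 in CSCs.

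**Figure D3:**
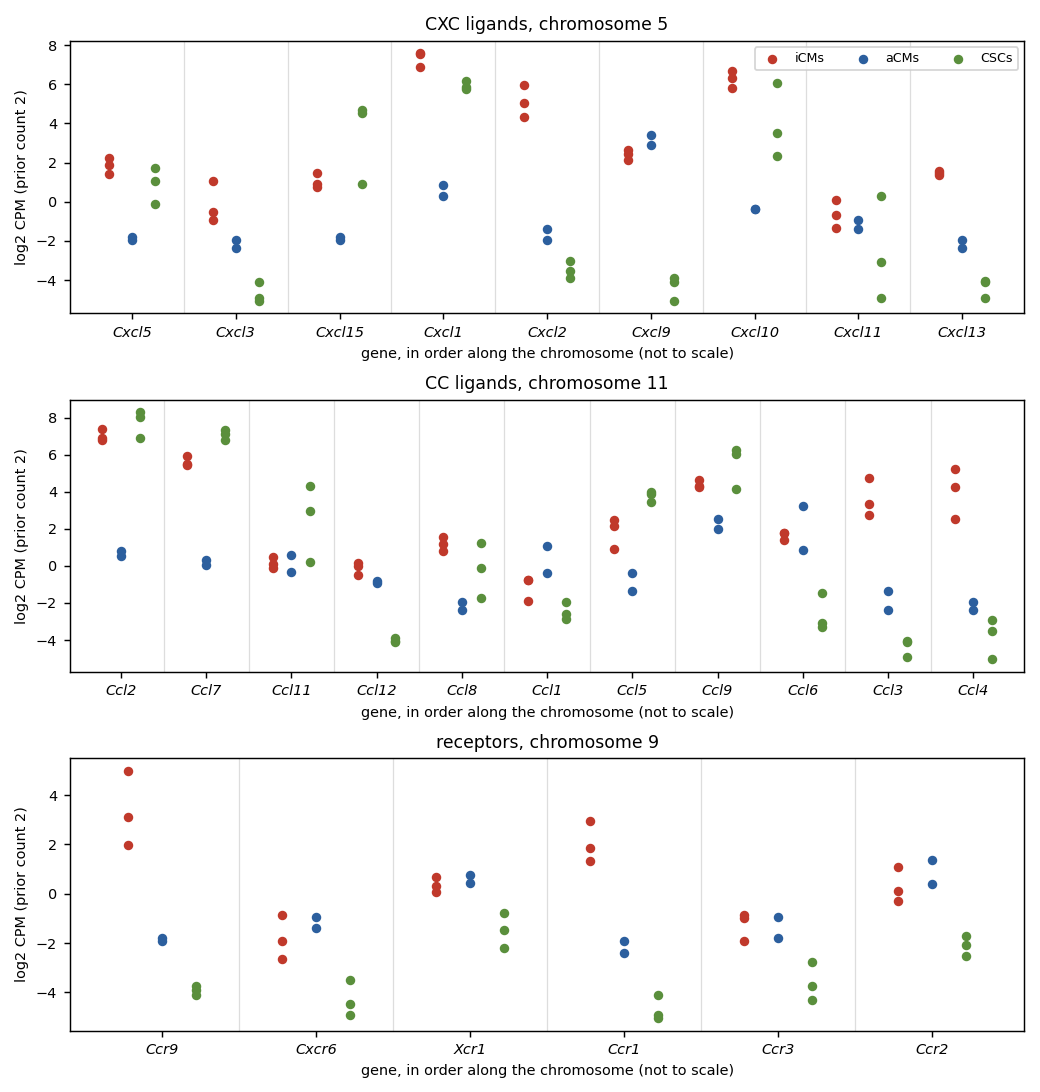
Level in each library, as log2 CPM with a prior count of 2, of genes that neighbour each other on chromosomes 5 (top), 11 (middle) and 9 (bottom), in their order along the chromosome and not to scale; colours mark iCMs, aCMs and CSCs and each point is a library. Cxcl2 and Cxcl3 are high in iCMs alone while Cxcl15 between Cxcl3 and Cxcl1 is highest in CSCs, and Ccl3 and Ccl4 at the end of the chromosome 11 cluster are high in iCMs alone. Cxcr6, drawn for its place, was not tested. Genes without counts are drawn higher in smaller libraries, so Cxcl3 lies higher in aCMs than in CSCs without a count in either.

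The interferon-induced ligands Cxcl9, Cxcl10 and Cxcl11, which attract T cells through Cxcr3, did not move as a group. Cxcl9 was at 5.42, 6.19 and 4.32 CPM in iCMs and 10.4 and 7.28 CPM in aCMs, against 0.0335, 0 and 0 CPM in CSCs. With 2 counts in CSCs, the ratio was 438 (120 to 3627) for iCMs and 687 (187 to 5724) for aCMs. The difference between iCMs and aCMs did not pass the test (-0.73 ± 0.47, edgeR adjusted p = 0.224).

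Cxcl10 differed more among the CSC libraries than between CSCs and iCMs. It was at 101, 80.5 and 56.2 CPM in iCMs and 0.526 and 0.575 CPM in aCMs, against 5.00, 66.2 and 11.3 CPM in CSCs. CSCs replicate 2 overlapped the iCMs, and the change of 1.52 ± 0.74 was not called (edgeR adjusted p = 0.115). Without that library it was 3.29 (edgeR adjusted p = 9.97e-05), and with no filter on low counts Cxcl10 also passed (1.49, edgeR adjusted p = 0.0243). Cxcl11 showed the same library: 1.02, 0.552 and 0.266 CPM in iCMs and 0.263 and 0.192 CPM in aCMs, against 0, 1.18 and 0.0585 CPM in CSCs, with a change of 0.57 (edgeR adjusted p = 0.718) that was 4.55 (edgeR adjusted p = 0.00751) without it. Cxcl10 and Cxcl11 lie inside the gene Art3, which was at 486 and 496 CPM in aCMs, where Cxcl10 was at its lowest. Against aCMs, Cxcl10 was higher in iCMs (7.15 ± 1.30, edgeR adjusted p = 0.00141). Cxcr3 had 8 counts in iCMs, 1 in aCMs and 4 in CSCs and was not tested.

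Of the 5 other CXC ligands, 4 were higher in iCMs than in CSCs. Cxcl16, a membrane-bound ligand of Cxcr6, was at 37.3, 40.4 and 43.1 CPM in iCMs and 11.2 and 12.8 CPM in aCMs, against 0.351, 0.273 and 0.0585 CPM in CSCs. Its groups did not overlap, and it changed by 7.35 ± 0.44 against CSCs and by 1.74 ± 0.39 against aCMs (edgeR adjusted p = 7.80e-07 and 0.00454). It overlaps Zmynd15 by 552 bases, which was at most 6.31 CPM in any library.

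Cxcl13, the B cell attractant and ligand of Cxcr5, was at 2.53, 2.73 and 2.79 CPM in iCMs and 0 in aCMs, against 0, 0.0303 and 0 CPM in CSCs. The ratio of iCMs to CSCs was 212 (57.9 to 1761), and the level was at least 15.9-fold higher than in aCMs. Cxcr5 itself was at 0.997, 1.14 and 1.13 CPM in iCMs, against 1.05, 0.864 and 0.994 CPM in CSCs (0.16 ± 0.39, edgeR adjusted p = 0.753).

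Cxcl14, a chemokine of resting tissues, was highest in aCMs. It was at 0.0539, 0.442 and 0.532 CPM in iCMs and 2.76 and 6.33 CPM in aCMs, against 0.0335, 0.0152 and 0.0292 CPM in CSCs. Together with Cxcl12 it was 1 of the 2 genes called lower in iCMs than in aCMs (-3.83 ± 0.77, edgeR adjusted p = 0.00248), and it was higher in aCMs than in CSCs (7.30 ± 0.92, edgeR adjusted p = 8.05e-05). Cxcl17, a chemokine of mucosal tissue, was at 0 in both aCM libraries, at least 3.79-fold lower than in iCMs and 3.87-fold lower than in CSCs. Both Cxcl17 calls were lost without either aCM library.

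The monocyte attractants Ccl2, Ccl7, Ccl8 and Ccl12 lie in 1 cluster on chromosome 11 and did not move together. Ccl2 (ENSMUSG00000035385, chr11:82035577-82037452), the main ligand of Ccr2, was at 166, 110 and 120 CPM in iCMs and 1.18 and 1.53 CPM in aCMs, against 267, 318 and 120 CPM in CSCs. CSCs replicate 3 overlapped the iCMs and the change of -0.83 ± 0.32 was not called (edgeR adjusted p = 0.0568). Ccl2 was 6.58 ± 0.54 higher on the log2 scale in iCMs than in aCMs (edgeR adjusted p = 1.16e-05) and was at -7.41 ± 0.55 in aCMs against CSCs (edgeR adjusted p = 2.03e-06).

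Ccl7, which also binds Ccr2, was at 60.0, 43.2 and 45.8 CPM in iCMs and 0.789 and 1.05 CPM in aCMs, against 163, 137 and 112 CPM in CSCs. All iCM libraries lay below all CSC libraries (-1.47 ± 0.20, edgeR adjusted p = 0.000278) and above both aCM libraries (5.73 ± 0.33, edgeR adjusted p = 2.75e-06). Ccl12, a Ccr2 ligand of the mouse, went the other way with 0.647, 0.921 and 0.998 CPM in iCMs and 0.263 and 0.383 CPM in aCMs, against 0.0335, 0.0303 and 0 CPM in CSCs (4.92 ± 0.70 for iCMs against CSCs, edgeR adjusted p = 0.000344). Ccl8 was at 0 in aCMs and at least 14.2-fold higher in iCMs and 7.03-fold higher in CSCs than there, while iCMs and CSCs overlapped (0.96, edgeR adjusted p = 0.275). Without CSCs replicate 1, Ccl8 was called higher in iCMs than in CSCs (2.01, edgeR adjusted p = 0.0319). The Ccl8 call between aCMs and CSCs was lost without either aCM library (edgeR adjusted p = 0.0538 and 0.0694).

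Ccr2, the receptor of Ccl2, Ccl7 and Ccl12, was at 1.02, 0.737 and 1.995 CPM in iCMs and 1.05 and 2.40 CPM in aCMs, against 0.201, 0.273 and 0.117 CPM in CSCs. It was called higher in both than in CSCs, by 2.58 ± 0.58 and 3.09 ± 0.64 (edgeR adjusted p = 0.00487 and 0.00217).

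Ccl3 and Ccl4, which attract macrophages and T cells, appeared in iCMs. Ccl3 was at 10.2, 27.2 and 6.65 CPM in iCMs and 0.131 and 0 CPM in aCMs, against 0, 0.0303 and 0 CPM in CSCs. Ccl4 was at 18.9, 37.6 and 5.72 CPM in iCMs and 0 in aCMs, against 0.1004, 0 and 0.0292 CPM in CSCs. Both were highest in iCMs replicate 2 and lowest in replicate 3, as were Ptprc (20.03, 45.8 and 9.18 CPM) and the T cell marker Cd3e (15.6, 31.0 and 3.46 CPM). Most leukocyte markers had another order, with 10 of 14 highest in replicate 3.

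The ratio of iCMs to CSCs for Ccl3 was 1229 (339 to 10158), and Ccl4 changed by 8.77 ± 1.03 (edgeR adjusted p = 0.000158). The annotated spans of the 2 genes share 755 bases, and since a strand setting is not given in the sources used here, reads in that stretch cannot be told apart. Against aCMs, Ccl4 was at least 137-fold higher in iCMs and the Ccl3 ratio was 277 (49.7 to 10957).

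Ccl5 and Ccl9 went the other way. Ccl5, a chemokine made by T cells and others, was at 4.37, 5.56 and 1.73 CPM in iCMs and 0.131 and 0.575 CPM in aCMs, against 10.96, 14.8 and 16.1 CPM in CSCs. It was lower in iCMs than in CSCs (-1.83 ± 0.45, edgeR adjusted p = 0.00754) and higher than in aCMs (3.37 ± 0.69, edgeR adjusted p = 0.00286). Ccl9, a Ccr1 ligand of the mouse, was at 19.5, 19.3 and 25.0 CPM in iCMs and 3.68 and 5.56 CPM in aCMs, against 17.6, 66.9 and 76.7 CPM in CSCs. CSCs replicate 1 lay below the iCMs, and the call (-1.34 ± 0.45, edgeR adjusted p = 0.0315) was lost in 5 of 6 fits that left out a library, all but the one without CSCs replicate 1. It was also lost with DESeq2, with its size factors, with library totals only, with the stricter filter and with only the 2 groups compared, where the change ran from -1.30 to -1.28. Ccl6, which lies beside it, was higher in both iCMs (4.20 ± 0.79, edgeR adjusted p = 0.00175) and aCMs (5.05 ± 0.84, edgeR adjusted p = 0.000545) than in CSCs, with 0.0669, 0.333 and 0.0585 CPM in CSCs.

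Ccr1, the receptor shared by Ccl3, Ccl5, Ccl6 and Ccl9, was found in iCMs alone. It was at 2.45, 3.54 and 7.58 CPM in iCMs and at 0 in every aCM and CSC library, which makes it at least 22.8-fold higher than in aCMs and at least 202-fold higher than in CSCs. Here iCMs replicate 3 was the highest, as for 10 of the 14 leukocyte markers, among them the neutrophil gene S100a8 (28.3, 32.0 and 44.8 CPM) and the macrophage gene C1qa (11.4, 14.7 and 31.1 CPM), whereas Ptprc and Cd3e were lowest there.

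Of the eotaxins, which attract eosinophils through Ccr3, Ccl11 was high in 2 CSC libraries. It was at 1.32, 0.847 and 0.931 CPM in iCMs and 0.526 and 1.34 CPM in aCMs, against 19.7, 1.14 and 7.66 CPM in CSCs. The change of -3.18 ± 0.84 for iCMs against CSCs was called (edgeR adjusted p = 0.011) although CSCs replicate 2 lay within the iCM range. For aCMs against CSCs it was -3.30 ± 1.05 (edgeR adjusted p = 0.0212), a call lost without either aCM library or CSCs replicate 1 (edgeR adjusted p = 0.133, 0.0626 and 0.06). Ccl24 had 16 counts in iCMs, 10 in aCMs and 2 in CSCs, with a ratio of aCMs to CSCs of 44.3 (9.45 to 416). All its aCM counts came from replicate 2, without which the fitted change against CSCs was -2.24 in place of 4.94. Ccl26 had 1 count in all.

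Of the 8 other tested CC ligands, Ccl21a and Ccl22 were called higher in iCMs than in CSCs and none was called lower. Ccl21a, a ligand of Ccr7 known from lymphatic vessels and lymph nodes, was at 13.4, 7.59 and 19.0 CPM in iCMs and 2.497 and 4.60 CPM in aCMs and at 0 in all CSC libraries. It was at least 666-fold higher in iCMs and at least 198-fold higher in aCMs than in CSCs. The difference between iCMs and aCMs (1.89 ± 0.52, edgeR adjusted p = 0.0178) was lost without iCMs replicate 3 or aCMs replicate 1 (edgeR adjusted p = 0.0537 and 0.11).

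Ccr7, which guides dendritic cells and T cells to lymph nodes, was at 7.17, 3.98 and 4.52 CPM in iCMs and 0.657 and 0.575 CPM in aCMs, against 0.569, 0.258 and 0.731 CPM in CSCs. It was higher in iCMs than in either of the others (3.35 ± 0.47 against CSCs and 3.09 ± 0.61 against aCMs, edgeR adjusted p = 0.00033 and 0.00228). Ccl19, its other ligand, had 16 counts in iCMs, 9 in aCMs and 2 in CSCs and was not tested.

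Ccl25, the ligand of Ccr9 and best known from thymus and gut, was at 14.8, 11.01 and 8.45 CPM in iCMs and 1.58 and 2.49 CPM in aCMs, against 23.2, 15.1 and 24.5 CPM in CSCs. All iCM libraries lay below the CSCs, but the change of -0.87 ± 0.30 missed the fold threshold (edgeR adjusted p = 0.0367). It was lower in aCMs than in CSCs (-3.34 ± 0.41, edgeR adjusted p = 6.82e-05). Its receptor Ccr9 took another course, with 8.57, 31.7 and 3.86 CPM in iCMs and 0 and 0.0958 CPM in aCMs, against 0.0335, 0.0455 and 0 CPM in CSCs (8.75 ± 1.03 for iCMs against CSCs, edgeR adjusted p = 9.55e-05). The order of the iCM libraries, with replicate 2 highest and 3 lowest, was again that of Ptprc and Cd3e, and not that of the 10 leukocyte markers highest in replicate 3.

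Ccl22 and Ccl17, both ligands of Ccr4, differed from each other. Ccl22 was at 7.90, 5.30 and 2.79 CPM in iCMs and 0.526 and 0 CPM in aCMs, against 0, 0.0303 and 0.0877 CPM in CSCs (7.19 ± 0.97 for iCMs against CSCs, edgeR adjusted p = 0.000236). Ccl17 was at 1.27, 1.44 and 0.798 CPM in iCMs and 0.263 and 0 CPM in aCMs, against 2.14, 1.35 and 3.80 CPM in CSCs, a difference between iCMs and CSCs that did not pass the test (-1.03 ± 0.55, edgeR adjusted p = 0.148). Its call against aCMs was lost without aCMs replicate 2 (edgeR adjusted p = 0.132). Ccr4 itself was not called with all libraries (2.66 for iCMs against CSCs, edgeR adjusted p = 0.0606), but was called higher in iCMs than in CSCs with no filter (2.61, edgeR adjusted p = 0.0463) and without iCMs replicate 3 (3.20) or CSCs replicate 3 (3.71, edgeR adjusted p = 0.0151 and 0.0345).

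Ccl1, Ccl20, Ccl27a and Ccl28 were called in at most 1 comparison each. Ccl27a, a ligand of Ccr10, was at 9.596, 9.24 and 8.65 CPM in iCMs and 12.6 and 15.7 CPM in aCMs, against 9.25, 5.93 and 13.2 CPM in CSCs. Neither Ccl27a nor Ccr10 was called in any comparison, and their changes between iCMs and CSCs were -0.04 ± 0.30 and 0.19 ± 0.48. Ccl20, the ligand of Ccr6, was likewise never called, and Ccr6 had 3 counts over all libraries. Ccl1, the ligand of Ccr8, was higher in aCMs than in CSCs (3.0 ± 0.77, edgeR adjusted p = 0.00699), a call lost without aCMs replicate 1 (edgeR adjusted p = 0.147). Ccl28 was not called, although without CSCs replicate 1, the highest of the CSCs, it was 5.57 higher on the log2 scale in iCMs (edgeR adjusted p = 0.00342).

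Cx3cl1, a membrane-anchored chemokine of endothelium and nerve cells, was high in CSCs and lower in both other groups. It was at 44.4, 35.2 and 46.2 CPM in iCMs and 19.98 and 26.1 CPM in aCMs, against 154, 82.3 and 97.9 CPM in CSCs. The change was -1.41 ± 0.25 for iCMs and -2.27 ± 0.30 for aCMs (edgeR adjusted p = 0.0013 and 0.000127). Without iCMs replicate 2 or CSCs replicate 1 the change in iCMs was -1.29 and -1.10 and fell short of the fold threshold. Its receptor Cx3cr1, a gene of monocytes and macrophages, went the other way with 5.34, 3.54 and 5.72 CPM in iCMs and 0.131 and 2.49 CPM in aCMs, against 0.368, 0.591 and 0.205 CPM in CSCs (3.60 ± 0.71 for iCMs against CSCs, edgeR adjusted p = 0.00238). The aCM libraries lay far apart in Cx3cr1, and neither of their comparisons was called with all libraries, the filter and TMM scaling (1.82 for iCMs against aCMs and 1.78 for aCMs against CSCs, edgeR adjusted p = 0.0861 and 0.0793). For iCMs against aCMs, Cx3cr1 was called with DESeq2, with no filter, with library totals only and without aCMs replicate 2, where the change was 5.20 (edgeR adjusted p = 0.00567). For aCMs against CSCs it was called with DESeq2 and without aCMs replicate 1 (2.62) or CSCs replicate 2 (2.22, edgeR adjusted p = 0.00655 and 0.0483), and without aCMs replicate 2 the change was -1.62 (edgeR adjusted p = 0.292).

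**Figure D4:**
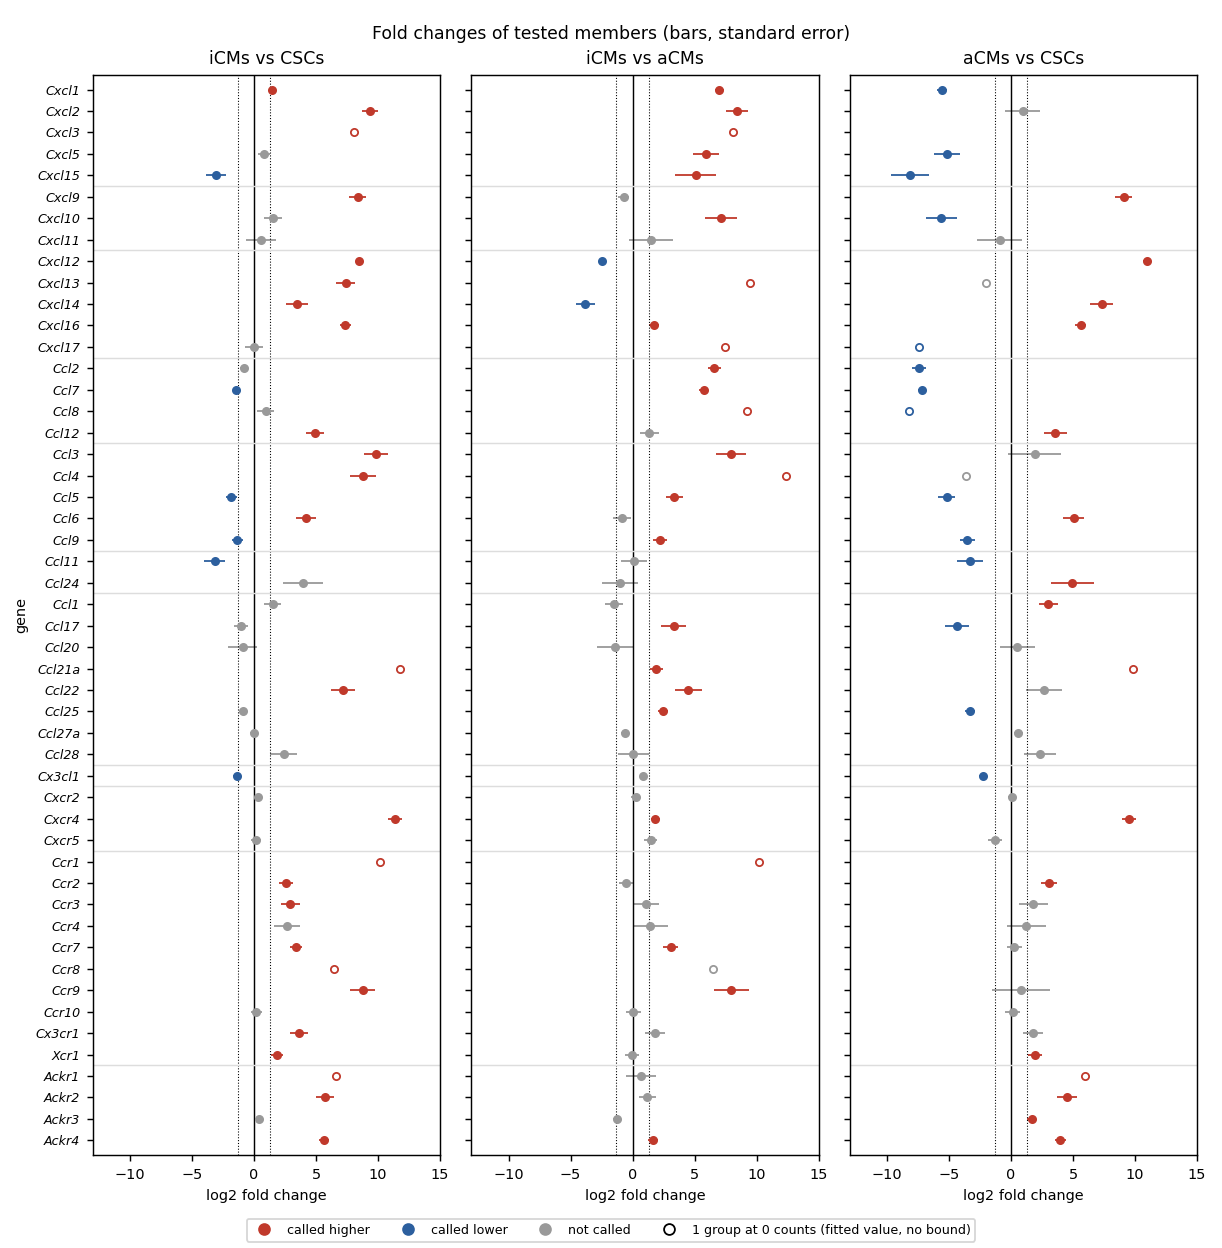
Log2 fold change of 50 of the 51 tested genes in iCMs against CSCs (left), in iCMs against aCMs (middle) and in aCMs against CSCs (right), with genes as rows ordered by role, bars for the standard error and dotted lines at 2.5-fold. Red marks genes called higher, blue lower and grey not called; open circles are fitted values of genes at 0 counts in 1 group, which are no bound. All 14 genes called lower in aCMs than in CSCs are ligands, while several receptors had too few counts in CSCs for such a call.

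The signalling receptors not yet described had few counts, and those called were called higher in iCMs than in CSCs. Xcr1, a receptor of cross-presenting dendritic cells, was at 1.54, 1.18 and 0.931 CPM in iCMs and 1.45 and 1.15 CPM in aCMs, against 0.184, 0.333 and 0.526 CPM in CSCs (1.84 ± 0.50 for iCMs and 1.91 ± 0.57 for aCMs, edgeR adjusted p = 0.0121 and 0.0158). The call of Xcr1 in aCMs was lost without aCMs replicate 1 (edgeR adjusted p = 0.083). Ccr3 had 32 counts in iCMs, 3 in aCMs and 7 in CSCs. Ccr8 had 29 counts in iCMs, none of them in replicate 3, and 0 in aCMs and CSCs, at least 19.5-fold higher in iCMs than in CSCs. Without iCMs replicate 1 or 2, Ccr3 and Ccr8 no longer passed the filter on low counts, nor did Ccr8 without any 1 of the CSC libraries. Cxcr6, the receptor of Cxcl16, had 19 counts in iCMs, 4 in aCMs and 2 in CSCs, and lies within Fyco1.

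All 4 atypical receptors were called higher in aCMs than in CSCs, and 3 of them in iCMs. Ackr4, which removes Ccl19, Ccl21 and Ccl25, varied little among iCMs, with 7.60, 7.44 and 7.51 CPM in iCMs and 1.58 and 3.16 CPM in aCMs, against 0.184, 0.136 and 0.117 CPM in CSCs. It changed by 5.63 ± 0.42 in iCMs against CSCs, 3.98 ± 0.44 in aCMs against CSCs and 1.65 ± 0.41 in iCMs against aCMs (edgeR adjusted p = 4.29e-06, 3.32e-05 and 0.00842), the last of which was lost without aCMs replicate 1 (edgeR adjusted p = 0.0647). Ackr4 lies within the span of Acad11, whose level had another order, with 14.5 to 17.5 CPM in iCMs and 247 and 260 CPM in aCMs, against 11.05 to 23.4 CPM in CSCs.

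Ackr2, which removes inflammatory CC chemokines, was at 2.48, 1.14 and 2.66 CPM in iCMs and 0.657 and 1.15 CPM in aCMs, against 0.0669, 0.0303 and 0 CPM in CSCs. The change was 5.70 ± 0.73 for iCMs and 4.52 ± 0.82 for aCMs (edgeR adjusted p = 0.000167 and 0.000907). Ackr1, a receptor of venules and red cells that binds CC and CXC ligands, had 29 counts in iCMs and 4 in aCMs and 0 in CSCs, at least 19.5-fold and 11.8-fold higher than in CSCs. All 4 aCM counts came from replicate 1, without which the change of Ackr1 between aCMs and CSCs was 0.

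Set side by side, some ligands and receptors took the same course between iCMs and CSCs and others did not. Both members were called higher for Cxcl12 and Cxcr4, for Ccl3 and Ccl6 with Ccr1, for Ccl12 and Ccr2 and for Ccl21a and Ccr7. The receptor was higher while a ligand was lower for Cx3cr1 with Cx3cl1, for Ccr2 with Ccl7, for Ccr3 with Ccl11 and for Ccr1 with Ccl5 and Ccl9, although the call of Ccl9 was lost in most other fits. The receptor was higher and the ligand not called for Ccr9 with Ccl25, for Ccr8 with Ccl1 and for Ccr2 with Ccl2. Of the members in these pairs, Cx3cl1 lost its call without iCMs replicate 2 or CSCs replicate 1. Ccr3 and Ccr8 were not tested without iCMs replicate 1 or 2, nor was Ccr8 without any 1 of the CSC libraries. The ligands Cxcl1 to Cxcl3, Cxcl13 and Ccl22 were higher while their receptors Cxcr2, Cxcr5 and Ccr4 were not called. None of the 18 tested receptors was called lower in iCMs than in CSCs, where several had too few counts for such a call.

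Genes around the family were read from 3 lists. Of all tested genes, 22% were called higher and 7.16% lower in iCMs than in CSCs. These shares were 19.6% and 15.3% for iCMs against aCMs and 24.2% and 20.4% for aCMs against CSCs. Of 8 tested chemokine relatives outside the naming rule, 4 were higher and 1 lower in iCMs than in CSCs, 2 were higher and none lower in iCMs than in aCMs, and 4 were higher and 2 lower in aCMs than in CSCs. Rarres2, which encodes the attractant chemerin, was at 81.0, 64.9 and 65.5 CPM in iCMs and 10.3 and 19.0 CPM in aCMs, against 0.820, 0.152 and 0.672 CPM in CSCs (7.03 ± 0.55 for iCMs against CSCs, edgeR adjusted p = 5.88e-06). Its receptor Cmklr1 was lower in iCMs than in CSCs (-1.38 ± 0.24, edgeR adjusted p = 0.00119), while the atypical chemerin receptor Ccrl2 was higher (4.68 ± 0.60, edgeR adjusted p = 0.000176). Cklf was at 3.69, 3.06 and 3.06 CPM in iCMs and at 0 and 0.0958 CPM in aCMs. It was called higher in iCMs than in aCMs (edgeR adjusted p = 0.000135), and was at 2.91, 2.95 and 3.51 CPM in CSCs.

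Of 25 genes that relay the receptor signal, 11 were higher and 1 lower in iCMs than in CSCs, 12 were higher and none lower in iCMs than in aCMs, and 7 were higher and 6 lower in aCMs than in CSCs. The counts for aCMs against CSCs lay near the shares of all tested genes. Gnai2, an inhibitory G-protein subunit, was level in all groups, at 358 to 372 CPM by library in iCMs (0.03 ± 0.16 against CSCs, edgeR adjusted p = 0.88). Its relative Gnai1 was higher in iCMs (7.88 ± 0.68, edgeR adjusted p = 1.12e-05), as were the receptor kinase Grk3 (3.73 ± 0.31, edgeR adjusted p = 8.37e-06) and the Rac activator Prex1 (4.26 ± 0.39, edgeR adjusted p = 1.53e-05). Rgs1, a brake on chemokine receptors of lymphocytes, was at 7.09, 14.3 and 12.4 CPM in iCMs and 0.263 and 0.192 CPM in aCMs and at 0 in CSCs. Plcb3 was the gene called lower in iCMs (-1.41 ± 0.19, edgeR adjusted p = 0.00023).

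Of 17 genes of NF-kB and inflammatory cytokines, which include regulators and companions of the inducible chemokines, 8 were higher and 2 lower in iCMs than in CSCs, 13 were higher and none lower in iCMs than in aCMs, and 2 were higher and 9 lower in aCMs than in CSCs. Nfkbiz, an inducible cofactor of NF-kB, was at 159, 139 and 150 CPM in iCMs and 2.76 and 5.56 CPM in aCMs, against 54.0, 26.3 and 28.5 CPM in CSCs. It changed by 5.14 ± 0.44 against aCMs and by 2.04 ± 0.31 against CSCs (edgeR adjusted p = 1.52e-05 and 0.000485). The inhibitor Tnfaip3 took the same course (4.33 ± 0.47 against aCMs, edgeR adjusted p = 5.85e-05). Tnf was at 15.4, 35.5 and 6.25 CPM in iCMs and at 0.263 and 0.383 CPM in aCMs. In CSCs it was at 0.0502, 0 and 0 CPM, and it was called higher in iCMs than there (edgeR adjusted p = 3.26e-05). The 2 genes lower in iCMs than in CSCs were Nfkb2, the NF-kB p100 subunit (-1.42 ± 0.16, edgeR adjusted p = 7.47e-05), and the cytokine Il33 (-2.95 ± 0.34, edgeR adjusted p = 9.03e-05).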

How the data were processed

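Total RNA was measured in 3 iCM, 2 aCM and 3 CSC libraries. The authors depleted ribosomal RNA, aligned reads in Strand NGS with Ensembl transcripts on the mm10 build and deposited a table of estimated counts by gene, of which 51.4% were not exactly whole (no tolerance) and were rounded. The deposited table's name also says RPKM, but its values were taken as estimated counts. The small RNA table was not used here. Ensembl IDs gave a symbol for 36308 entries, and 956 entries outside the annotation held 0.147% of counts. No 2 libraries were duplicates. With edgeR 4.0.16 in R 4.3.3, genes of low count were dropped by group, libraries were scaled by TMM, and the quasi-likelihood test was fitted to all 8 libraries for 3 contrasts, with Benjamini-Hochberg adjustment over 20254 genes and the 2.5-fold threshold of the study's methods. SE is the log2 fold change over the root of F. A group at 0 counts was set at 3 counts over the group, and 1 to 3 counts gave a ratio with a 95% exact interval of counting error.

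Named by rule were the 12 genes with the largest group mean, per comparison up to 6 with the largest rise and 4 with the deepest fall among those called, and Cxcl12, Cxcr4 and Ackr3. Per list of other genes, up to 4 called with the smallest p over all comparisons were named. All other genes given with values were chosen after their values were seen. The members and lists were chosen with earlier results of these data known. Among the tested members, 1 is not reported here and is left out of the figures, but it stays in the counts and medians. The steps were tested on simulated counts. Alternatives were DESeq2 1.42.0, its size factors, a stricter filter (1 CPM in 2 libraries), no filter, library totals only, fits of only the groups compared, a replicate block, either threshold alone and leaving out each library.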

Additional observations from a re-analysis of the deposited data

How the results depend on the processing

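Of 32 genes called between iCMs and CSCs, 28 were called in every fit that left out a library, as were 20 of 27 between iCMs and aCMs and 22 of 30 between aCMs and CSCs. In those fits the median log2 fold change of the members tested in each ran from 1.71 to 2.89 for iCMs vs CSCs, from 1.73 to 2.03 for iCMs vs aCMs and from 0 to 1.03 for aCMs vs CSCs. For aCMs vs CSCs, Ackr1 ran from 0 without aCMs replicate 1 to 7.18 without aCMs replicate 2, and Ccl24 from -2.24 without aCMs replicate 2 to 5.84 without aCMs replicate 1. With library totals only, the median of all genes shifted by 0.71 for iCMs vs aCMs and by -0.66 for aCMs vs CSCs, and that of the 51 members was 2.45 and 0. The share of calls that were higher then was 79.3% in place of 56.2% for iCMs vs aCMs and 36.3% in place of 54.2% for aCMs vs CSCs. Among the uncalled genes whose sign turned with this scaling were Ccr2, Xcr1 and Ccl27a in iCMs vs aCMs and Cxcr2, Ccr7, Ccr10 and Ccl27a in aCMs vs CSCs. With no filter the shifts were 0.18 and -0.20. The median for iCMs vs CSCs was 2.16 with the stricter filter and 1.74 with only the groups compared, and for aCMs vs CSCs it was 0.261 with only the groups compared and 0.679 with DESeq2. Each median covers the members that passed the filter of its fit, so these are not always medians of the same genes. For iCMs vs CSCs the stricter filter kept 29 ligands and 13 receptors, and the fit of only these groups kept 30 and 14. With the fold threshold alone, 4 members were lower in iCMs than in aCMs. The cause of these moves was not tested.

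Same-numbered iCM and CSC libraries deviated together at r = 0.05, 0.15 and 0.10, and differently numbered ones at -0.13 to 0.06, and the labels name no shared origin, so these numbers were not treated as pairs. Each library correlated best with its own number except CSCs replicate 1, whose value with iCMs replicate 3 was 0.06. With the replicate block, 28 members were higher and 5 lower in iCMs than in CSCs, 24 and 2 in iCMs against aCMs and 15 and 13 in aCMs against CSCs. The medians were 2.6, 1.72 and 0.46. The block ended the calls of Ccl9 in iCMs vs CSCs, of Ccl21a in iCMs vs aCMs and of Ccl11 and Ackr1 in aCMs vs CSCs, and called Cxcl10 and Ccl28 higher in iCMs than in CSCs. Depth limits the aCMs most, where a floor of 3 counts over the group is 0.166 CPM, against 0.0378 CPM in iCMs and 0.0188 CPM in CSCs.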
